A study of Mus musculus with 6 samples.

Results

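Among the 8040 new lncRNAs assembled from mouse cortex, 600 carried a long reading frame on the strand opposite to the deposited sequence. A reading frame here is a run of codons from an AUG to the next stop codon in the same register. A transcript was included when the reverse complement of its deposited RNA sequence held a frame of 100 codons or more, with the start codon counted and the stop codon not. All 3 registers of the complement were read, and the first AUG after each stop opened the frame. The 600 transcripts were 7.46% of the set (Wilson 95% interval 6.91 to 8.06). The sequences came from wild-type C57BL/6 mice, given as C57BL/6 J in the methods. There were 3 libraries of control cortex and 3 of cortex around the bleeding at 24 h after subarachnoid haemorrhage (SAH). Each library was pooled from 3 mice. SAH was induced by endovascular perforation. The controls were operated without perforation according to the methods, and the sample labels call them normal. The deposited records are 1 sequence, 1 predicted structure and 1 folding energy for each transcript over the 6 libraries, so no value for a library was at hand, the read depth behind a transcript is not known from them, and control and SAH were not compared.

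Long non-coding RNAs are transcripts without a recognised protein-coding frame, and the absence of a long frame is among the usual grounds for calling a transcript non-coding. That test depends on the strand that is read, because an RNA and its complement hold different codons. In a frame that is translated, the base at the last codon position is freer to vary than the other positions, an AUG is often preceded by a purine 3 bases upstream and followed by G, and proteins that cross membranes hold long runs of hydrophobic residues. A frame can also arise by chance or inside repeated DNA, where simple tandem units translate into alternating residues.

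The complements below open with the sequence around the start codon of 5 of the 10 longest frames, chosen to show frames that fill nearly the whole record and frames that lie inside it. They are written 5′ to 3′ on the complement, with the start codon in capitals, after 8 bases of preceding sequence.
TCONS_00103884: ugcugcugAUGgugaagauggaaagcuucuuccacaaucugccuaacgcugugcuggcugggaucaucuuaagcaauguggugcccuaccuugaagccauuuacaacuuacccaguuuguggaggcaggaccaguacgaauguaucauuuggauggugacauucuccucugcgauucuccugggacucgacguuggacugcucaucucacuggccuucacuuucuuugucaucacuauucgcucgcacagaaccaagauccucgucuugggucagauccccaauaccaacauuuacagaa
TCONS_00207438: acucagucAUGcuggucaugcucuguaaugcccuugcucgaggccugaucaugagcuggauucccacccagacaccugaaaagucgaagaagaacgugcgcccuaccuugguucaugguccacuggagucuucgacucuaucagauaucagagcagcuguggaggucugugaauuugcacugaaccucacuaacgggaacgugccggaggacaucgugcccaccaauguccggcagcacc
TCONS_00197129: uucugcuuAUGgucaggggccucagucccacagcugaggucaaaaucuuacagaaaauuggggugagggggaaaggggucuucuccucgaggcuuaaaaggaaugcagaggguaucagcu
TCONS_00251654: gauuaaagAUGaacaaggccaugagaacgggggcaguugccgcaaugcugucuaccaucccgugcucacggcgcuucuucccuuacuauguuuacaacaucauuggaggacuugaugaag
TCONS_00166133: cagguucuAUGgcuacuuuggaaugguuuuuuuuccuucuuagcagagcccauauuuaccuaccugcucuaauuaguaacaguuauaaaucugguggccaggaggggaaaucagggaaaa
The first covers bases 1 to 300 of the complement of TCONS_00103884, a record of 975 nt, and the second bases 25 to 264 of TCONS_00207438, a record of 665 nt. The last 3 show 120 bases each.

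Most of the frames were close to the limit of the rule. The median frame had 114 codons (quartiles 106 and 127) and the range was 100 to 330 codons. There were 221 frames under 110 codons, 237 of at least 120, 70 of at least 150 and 9 of at least 200. Only 2 frames reached 300 codons. At the threshold itself, 31 transcripts had exactly 100 codons on the complement, whereas 36 had 99 and 30 had 98. On the deposited strand the longest frame of any of the 8040 transcripts was 99 codons, found in 19 of them. The paper called transcripts lncRNAs only where they lacked coding potential, and that selection may have set this ceiling, which was not tested. The 2 strands are therefore not a like comparison at 100 codons. Within the 600 transcripts the longest frame on the deposited strand had a median of 61.5 codons. A further frame of at least 100 codons was present in 61 transcripts, with at most 3 in 1 transcript, which gave 672 such frames in all.

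**Figure D1:**
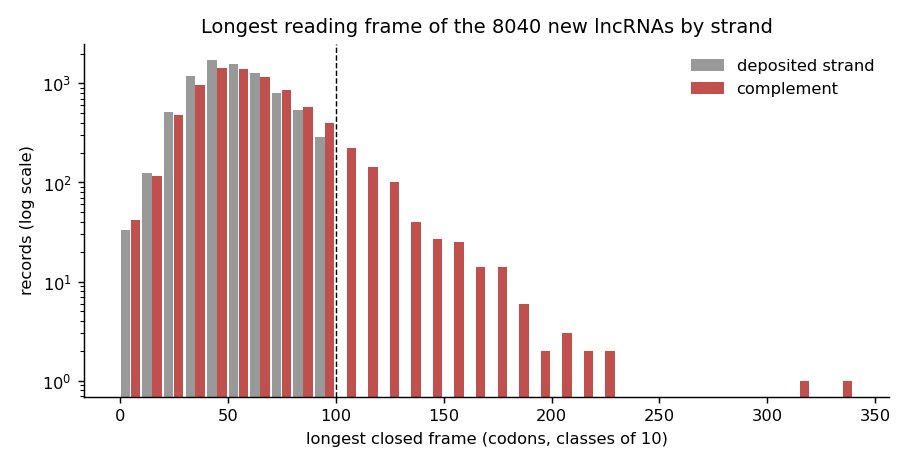
Number of records (log scale) against the longest closed frame in codons, in classes of 10, for the deposited strand (grey) and the complement (red) of the 8040 new lncRNAs. The dashed line marks 100 codons; the grey bars end at 99 codons and the red bars run on to 330.

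The 10 longest frames belonged to TCONS_00197129 with 330 codons, TCONS_00103884 with 313, TCONS_00183236 with 222, TCONS_00166133 with 221, TCONS_00056775 and TCONS_00059189 with 216 each, TCONS_00051138 with 206, TCONS_00012544 with 205, TCONS_00251654 with 203 and TCONS_00207438 with 194. They differed in how much of the record the frame took. In TCONS_00051138, a record of 4997 nt, it was 12.4% of the sequence. In TCONS_00197129 it ran from base 708 to base 1700 of 2382 and took 41.7%. In TCONS_00103884 it ran from base 9 to base 950 and took 96.6%, the largest share of the 600, and no stop codon lay upstream of its start in the same register. In TCONS_00207438 it ran from base 33 to base 617, took 88.0% and was likewise open upstream.

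**Figure D2:**
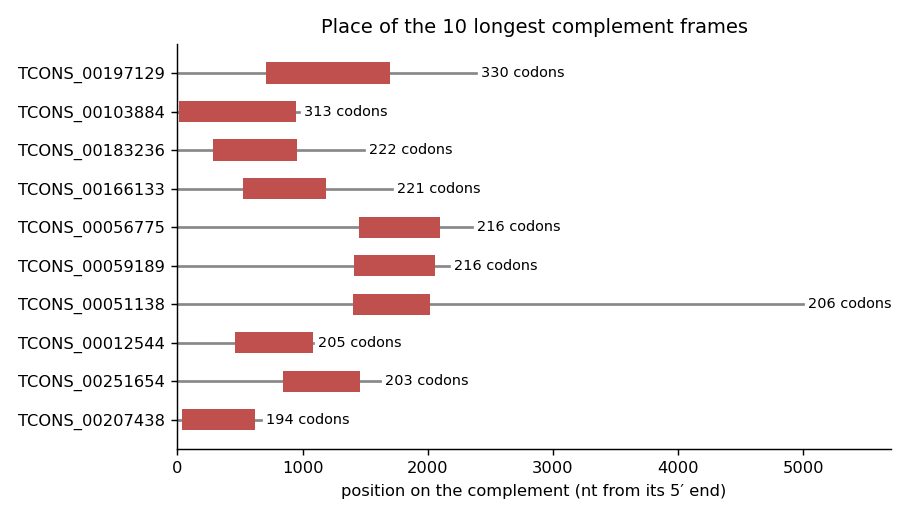
Place of the 10 longest frames (red boxes) on the complement of each record (grey lines), in nt from the 5′ end of the complement. The frame fills nearly the whole record in TCONS_00103884 (96.6%) and TCONS_00207438 (88.0%) and lies inside the record in the others.

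Over all 600 transcripts the frame took a median of 25.4% of the record (range 3.49 to 96.6%) and its midpoint lay at a median of 50.1% of the record's length. In 38 transcripts it took more than 50% of the record. The stretch without a stop codon reached upstream of the AUG by a median of 10 codons, and in 52 transcripts (8.67%, interval 6.67 to 11.2) it reached the end of the record. The stop codon was UGA in 268 frames (44.7%), UAA in 169 (28.2%) and UAG in 163 (27.2%).

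The bases around the start codon were compared with those of the longest frames of 80 to 99 codons, which lie just under the rule, on the complement (979 transcripts) and on the deposited strand (831 transcripts). A purine 3 bases before the AUG was present in 49% of the 600 frames (interval 45.0 to 53.0), in 48.9% of the shorter frames of the complement and in 47.8% of those of the deposited strand. G directly after the AUG was present in 30.7% (27.1 to 34.5), against 25.3% (22.7 to 28.1) and 26.7% (23.8 to 29.8). The intervals of the 600 and of the shorter frames overlapped in each case. Both features together were found in 95 frames (15.8%, 13.1 to 19), against 13.6% in either comparison set. Among the 70 frames of at least 150 codons, 35 had the G and 20 (28.6%, 19.3 to 40.1) had both. These intervals cover counting error only, and transcripts that share sequence are not independent.

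The records that carried the frames were longer, richer in G and C and of lower folding energy per length than the other 7440. Their median length was 1424 nt against 1097 nt, their median GC content 44.8% against 41.4%, and their median folding energy -30.6 against -27.7 kcal/mol per 100 nt. The interquartile ranges of GC content overlapped, 41.0 to 48.4% against 37.7 to 45.2%. A longer sequence offers more places for a frame, so the difference was taken again within 4 length classes of nearly equal numbers of the 600, where it was 3.37 to 4.12 percentage points of GC content. The share of transcripts with a frame rose from 2.89% in the shortest 25% of all records to 13.1% in the longest 25%, and from 3.63% in the 25% lowest in GC content to 13.6% in the highest. The share of paired bases in the deposited structures had a median of 59.7% and 58.8%. The frames themselves had a median GC content of 47.1%, with a range of 29.0 to 78.1%.

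Translation of the longest frame of each transcript gave 73015 residues and 563 distinct protein sequences. Codon use was counted over the 72415 codons that followed the start codons. The rule forbids the 3 stop codons, which all begin with U, and the frames of 80 to 99 codons were held to the same condition, so they are the proper comparison. Purines made up 50.5% of the bases at codon position 1, 46.0% at position 2 and 45.9% at position 3. In the shorter frames of the complement these were 50.7, 46.4 and 46.1%, and in those of the deposited strand 51.2, 46.8 and 47.0%. Thus the 3 sets differed by at most 1.15 percentage points at any codon position. A frame had more purine at position 1 than at position 3 in 457 of 600 transcripts (76.2%), against 72.1% and 68.7% in the shorter frames. This count depends on the number of codons in a frame as well as on base use, so it does not show a difference in base use.

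The GC content was 48.2% at codon position 1, 45.9% at position 2 and 46.8% at position 3. Within a frame the GC content at position 3 minus the mean of the other positions had a median of -0.395 percentage points (range -20.9 to 22.0), and it was above 0 in 280 of 600 frames (46.7%). In the shorter frames the median was -0.538 on the complement and -1.22 on the deposited strand. A difference of at least 10 points was present in 21 frames (3.50%, interval 2.30 to 5.29). It was present in 58 of 979 shorter frames on the complement (5.92%, 4.61 to 7.58) and in 42 of 831 on the deposited strand (5.05%, 3.76 to 6.76). The share in the 600 was thus no larger than in the shorter frames. A percentage taken over fewer codons varies more, so shorter frames pass a fixed limit more easily. These shares therefore cannot show whether the 600 differ from the shorter frames. Among the 70 frames of at least 150 codons, 4 (5.71%, 2.24 to 13.8) reached 10 points, and the median difference was 0.342 points.

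Individual frames stood apart in this measure. The highest of the 600 were TCONS_00207438 at 22.0 points, with 71.0% GC at codon position 3, and TCONS_00103884 at 20.2 points, with 61.2%. These are the same transcripts whose frames took 88.0 and 96.6% of their records and were open upstream. TCONS_00142812 came next at 16.8 points, with a frame of 120 codons that took 14.8% of its record, followed by TCONS_00236590 at 15.6 and TCONS_00121349 at 15.5 points. Of the 38 frames over 50% of their record, 5 reached 10 points, and of the other 562, 16 did. Wide coverage did not always go with raised GC at position 3, since TCONS_00168003, with 169 codons over 83.1% of its record, was at -6.55 points.

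**Figure D3:**
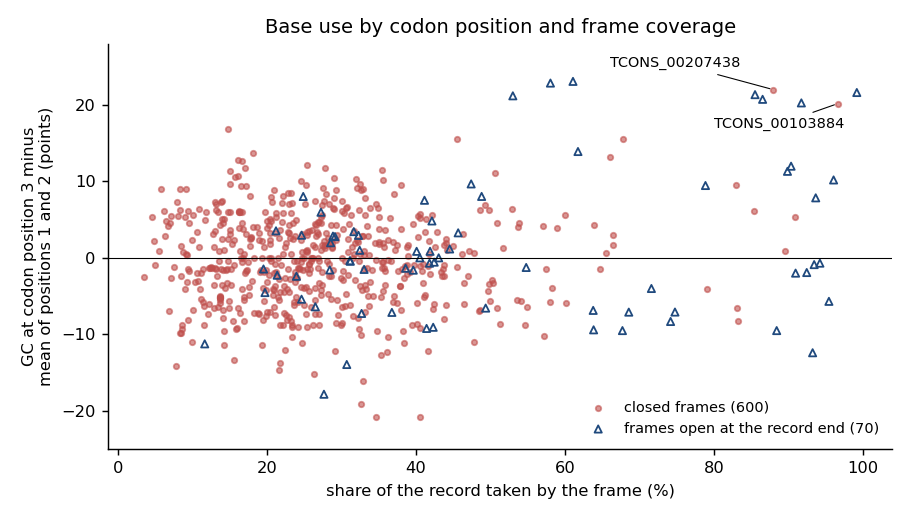
GC content at codon position 3 minus the mean of positions 1 and 2 (percentage points) against the share of the record taken by the frame (%), 1 point per transcript, for 600 closed frames (red) and 70 frames open at the record end (blue triangles). TCONS_00207438 (22.0 points) and TCONS_00103884 (20.2 points) lie at the upper right, apart from the body of closed frames.

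Codons that hold the dinucleotide CG were rare, with 1914 of the 72415 codons (2.64%) in the 8 such codons. The rarest codon was CGA, which encodes arginine, at 0.269%, followed by GCG at 0.304%, ACG at 0.312% and UCG at 0.315%. The most used codons were UUU at 2.85%, UGU at 2.78%, and CUG and UCU at 2.66% each. Among the residues, leucine made up 12.0% and serine 10.2%. Proline followed at 6.69%, valine at 6.20%, threonine at 5.98%, glycine at 5.88%, arginine at 5.54% and alanine at 5.07%. Aspartate was at 2.32%, tryptophan at 1.92% and methionine, start codons not counted, at 1.86%.

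The same bases were also read in the other registers. Because the rule bars stop codons in the frame, it also limits which codons these registers can hold. The differences are therefore partly set by the rule and do not by themselves show a choice of residues. Read 1 base later, the frames gave glutamate at 2.78% in place of 3.8%, aspartate at 1.57% in place of 2.32% and asparagine at 2.33% in place of 3.07%. Read 2 bases later, glutamate was at 4.0% and aspartate at 2.51%, and leucine was at 10.4%. Stop codons made up 4.71 and 4.80% of the codons in these registers. The frames of 80 to 99 codons on the complement had 12.1% leucine, 10.2% serine, 3.94% glutamate and 2.55% aspartate, and those on the deposited strand 11.6, 10.1, 3.64 and 2.37%. They had more isoleucine (4.88 and 4.93% against 4.38%) and more lysine (4.84 and 4.79% against 4.42%). The GC content of the frames was lower in these sets, at medians of 44.9 and 45.2% against 47.1%, and its part in the difference was not tested. The translated proteins had a median net charge of 4 (range -11 to 30), counting lysine and arginine against aspartate and glutamate.

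**Figure D4:**
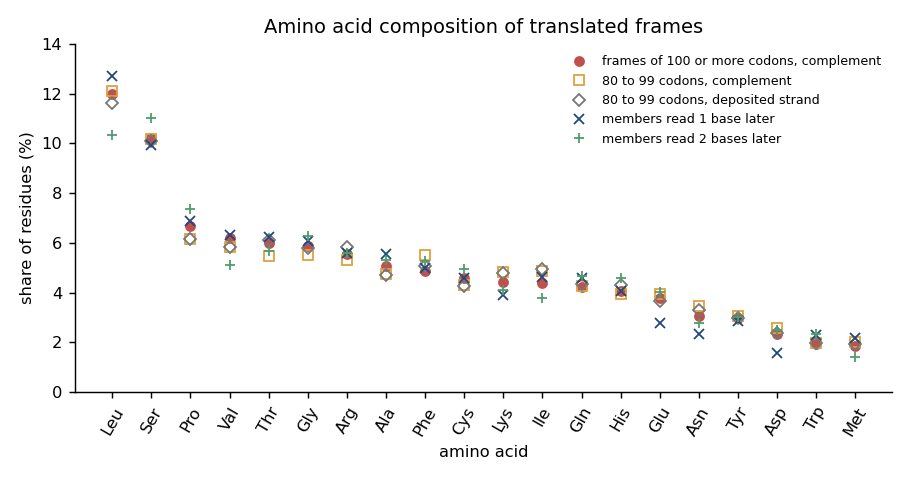
Share of residues (%) for each amino acid, in order of its share in the 600 frames (red circles), beside frames of 80 to 99 codons on the complement (orange squares) and the deposited strand (grey diamonds) and the 600 frames read 1 (crosses) or 2 (plus signs) bases later. Leucine (12.0%) and serine (10.2%) lead, and glutamate and aspartate are lowest in the register 1 base later. The bar on stop codons in the frame also limits which codons the later registers can hold.

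A hydrophobic window was counted where 19 residues in a row had a mean Kyte-Doolittle value of at least 1.6, a common limit for a stretch able to cross a membrane. Such a window was present in 211 frames (35.2%, interval 31.5 to 39.1), against 25.6% and 23.5% of the shorter frames, which have fewer residues in which to hold one. There were 50 frames with at least 2 separate windows and 15 with at least 3. TCONS_00183236, with 222 codons, held 6, the most of any. TCONS_00103884 held 3, with a highest mean of 2.35. The highest mean of the 600 was 3.61 in TCONS_00153529. Some of these windows coincided with simple repeats, as the next sequences show.

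Residues repeated in tandem, at least 3 exact units over at least 10 residues, were present in 28 frames (4.67%, interval 3.25 to 6.66). They were present in 3.06% of the shorter frames on the complement and 3.49% of those on the deposited strand, which have fewer residues in which to hold them. Where only 1 of the 600 was kept from each group of records sharing 50 bases, 18 of 522 frames held them (3.45%, 2.19 to 5.38). Long simple repeats can themselves link records in this grouping, so the lower share is not free of the repeats counted. In 21 of the 28 frames 2 residues alternated. Cysteine and valine alternated in 11, histidine and threonine in 4, and glutamate and arginine in 3. The repeats were those of the RNA. The stretch used only G and U in 9 frames, only C and A in 5 and only A and G in 4. The stretches of 5 frames are printed below, with the bases of the first unit of residues in capitals, and for TCONS_00094897 and TCONS_00168444 only the first 60 of 72 bases are shown.
TCONS_00197129: CACACAcacacacacacacacacacacaca
TCONS_00183236: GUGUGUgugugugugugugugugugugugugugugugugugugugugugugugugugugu
TCONS_00094897: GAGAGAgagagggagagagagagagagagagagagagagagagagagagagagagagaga
TCONS_00168444: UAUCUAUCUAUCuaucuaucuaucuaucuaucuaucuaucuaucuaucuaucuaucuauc
TCONS_00225379: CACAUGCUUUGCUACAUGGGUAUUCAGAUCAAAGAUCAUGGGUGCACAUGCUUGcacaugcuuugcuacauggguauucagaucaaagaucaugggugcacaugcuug
The alternating G and U of TCONS_00183236 translate into cysteine and valine in turn over 20 residues. The A and C of TCONS_00197129, the longest frame of all, give histidine and threonine over 10 residues. TCONS_00225379 was of another kind. Its 54 residues were 3 identical copies of a unit of 18 residues, and the 54 bases of each copy were identical as well. The first 2 copies are printed.

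TCONS_00103884 belonged to a set of records that shared its frame. From its start codon onwards 915 bases, or 305 codons, were identical in TCONS_00103883. There the 2 records parted. TCONS_00103884 read on for 8 codons to a UAG, and TCONS_00103883 ran without a stop codon to its last base, for 396 codons in all. The ends of the shared stretch are printed with the first 2 bases that differ, and the stop codon, in capitals.
TCONS_00103884: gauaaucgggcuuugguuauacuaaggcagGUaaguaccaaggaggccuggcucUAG
TCONS_00103883: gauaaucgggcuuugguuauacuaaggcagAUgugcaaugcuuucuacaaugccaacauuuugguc
After the shared bases TCONS_00103884 began with GU, the letters with which most introns begin on the strand of their gene. TCONS_00103013, another of the 600, held a frame of 176 codons that was codons 138 to 313 of TCONS_00103884. TCONS_00101030 was open to its end for 351 codons. TCONS_00207438 likewise shared 287 bases of its frame with TCONS_00209274, whose complement ended there with the frame still open.

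Frames that were open at the end of the record were not counted by the rule. When they were, 70 further complements reached 100 codons, which gave 670 transcripts (8.33%). The deposited strand gave 0, a value that the selection of the records as non-coding may have set. The open frames ran for 100 to 1101 codons, with a median of 127.5, and 23 of them reached 150 codons, against 70 of the 600 closed frames. The longest was in TCONS_00024562, where 1101 codons took 90.3% of a record of 3656 nt with GC at position 3 higher by 12.0 points. TCONS_00025550 followed with 859 codons over 96.0% of its record and 10.2 points. Of the 70 open frames, 18 were open upstream as well, and 11 (15.7%, interval 9.01 to 26.0) had GC at position 3 at least 10 points above the other positions, against 3.50% of the closed frames. A purine 3 bases before the AUG was present in 45 of them (64.3%, 52.6 to 74.5). Several of the open frames were in records that share sequence, and 11 were linked to at least 1 of the 600 by shared runs of 50 bases. Those so linked that had raised GC at position 3 were TCONS_00103883, TCONS_00101030, TCONS_00105256, TCONS_00209274 and TCONS_00213706. The others with raised GC, among them TCONS_00024562 and TCONS_00025550, were not linked to the 600. The contrast with the closed frames therefore counts some sequence more than once.

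Protein sequence was seldom shared between the 600 frames unless their records were linked by shared bases. An exact run of 30 residues was shared by 76 transcripts in 36 groups, of at most 3 transcripts each. All 36 groups lay within a group of records linked by exact shared runs of 50 bases. Records were linked stepwise, so 2 records of a group need not share a run with each other. The 4 groups of 3 came first. TCONS_00055839, TCONS_00056775 and TCONS_00059189 had frames of 117, 216 and 216 codons. TCONS_00109262, TCONS_00111058 and TCONS_00112576 had the same 101 residues, TCONS_00129128, TCONS_00131632 and TCONS_00135636 the same 100, and TCONS_00237694, TCONS_00237695 and TCONS_00243331 the same 131. The remaining groups were pairs, such as TCONS_00005361 and TCONS_00007528 with 102 residues. Of 41 groups with at least 2 of the 600 that shared 50 bases, 28 translated alike, and 10 held frames with no run of 30 residues in common. The largest of the 41 held 35 of the 600 and was a chain of 347 records.

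Alignment of the proteins (blastp, E at most 1e-10) found 2 groups that reached across different groups of records linked by runs of 50 bases. The smaller was the pair TCONS_00118953 and TCONS_00238766, with frames of 127 and 167 codons and 50.7% of residues identical over 69 aligned positions. The larger was a family of 7 with TCONS_00040962, TCONS_00071222, TCONS_00088345, TCONS_00134666, TCONS_00152297, TCONS_00195495 and TCONS_00229577. These 7 records came from only 4 groups linked by runs of 50 bases, so some of them were linked to each other. TCONS_00040962 and TCONS_00071222, for example, were both in the chain of 347 records. Of the 21 possible pairs 16 were aligned, over 27 to 64 residues, with 67.2 to 92.5% of residues identical (median 83.1%). Over all 16 aligned pairs, 45 differences lay at codon position 1, 92 at position 2 and 132 at position 3. Position 3 had the most in 12 pairs. The pairs share transcripts, so these counts are not independent. They were also found by the likeness of their residues, which favours differences at position 3. Whether the frames are translated was not tested. The same frames were present as copies in many other records, from 112 for TCONS_00152297 to 248 for TCONS_00195495.

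A copy was an alignment of at least 100 bases of the frame with at least 80% identity in another record, on either strand. In 428 of the 600 transcripts (71.3%) the frame had no copy, in 172 at least 1, in 16 at least 20, and in 9 at least 100. The 9 were the family of 7, TCONS_00223098 and TCONS_00105487. The family's copies lay mostly on the complement of the other records, 194 on the complement and 59 on the deposited strand for TCONS_00195495. The other 2 went the opposite way, with 179 of 221 records holding the copy on the deposited strand for TCONS_00223098 and 134 of 163 for TCONS_00105487. In TCONS_00155633 it was 66 of 68 and in TCONS_00121349 47 of 49. A record could hold copies on both strands. Between frames of records in different groups sharing 50 bases, aligned pairs ran on opposite strands in 23 cases, on the same strand in another register in 14 and in the same register in 18.

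**Figure D5:**
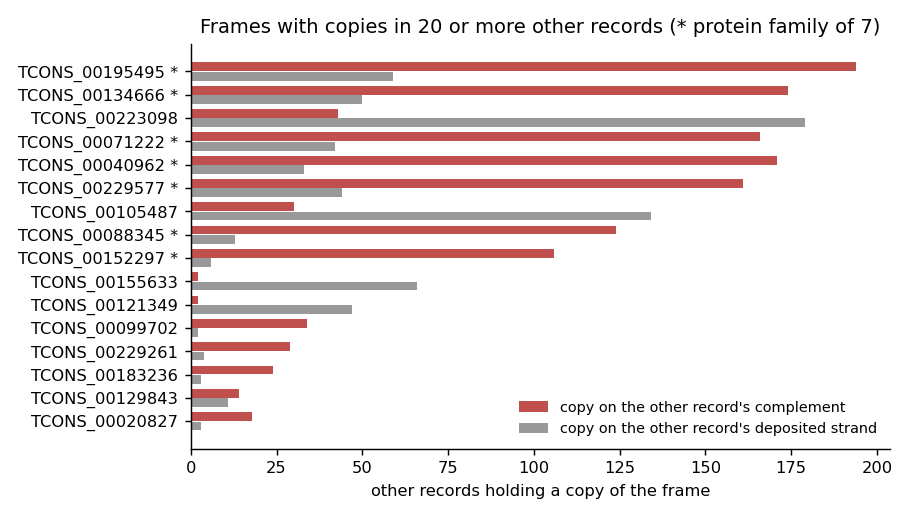
Number of other records that hold a copy of the frame, on their complement (red) or on their deposited strand (grey), for the 16 transcripts with copies in at least 20 records, and asterisks mark the protein family of 7. The family's copies lie mostly on the complement, whereas those of TCONS_00223098, TCONS_00105487, TCONS_00155633 and TCONS_00121349 lie mostly on the deposited strand.

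Because the rule rests on the strand, the direction of the deposited sequences was examined. RefSeq start windows, the 250 bases before and the first 50 bases of a gene in assembly GRCm38.p6, were found whole in 44 of the 8040 records, in 48 matches to 39 genes. The deposited sequence ran along the plus strand of the genome in 48 of 48 matches, whichever strand the gene was on, and in 8 of 8 matches in the 600 transcripts. For genes on the minus strand the complement therefore runs in the direction of the gene. This was so for TCONS_00012544, whose frame of 205 codons covered the whole window of the lncRNA gene Gm51648 (chr1:133214138-133214437, minus strand), and for TCONS_00121617 with Gm41838 (chr19:36553990-36554289, minus strand). It was also so for TCONS_00215149 with Cfap46, which encodes a protein of cilia and flagella (chr7:139683766-139684065, minus strand), and for TCONS_00045864 with Zdhhc22, a palmitoyltransferase (chr12:86990781-86991080, minus strand), where frame and gene start were 1712 bases apart. In TCONS_00050311, TCONS_00150776, TCONS_00153962 and TCONS_00166562 the gene, Gm32876, Gm30944, Mex3a and Gm46875 in turn, ran along the plus strand, against the frame. The gene start lay inside the frame in 5 of the 8.

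TCONS_00153962 overlapped the start of Mex3a, which encodes an RNA-binding protein. Its frame of 188 codons ran away from the gene on the opposite strand, and 26 bases separated its start codon from the first base of Mex3a. The plus strand before the gene (RefSeq, GRCm38.p6, chr3:88531795-88531946) is printed with the reverse complement of the frame's start codon, and then the first base of the gene, in capitals.
Mex3a: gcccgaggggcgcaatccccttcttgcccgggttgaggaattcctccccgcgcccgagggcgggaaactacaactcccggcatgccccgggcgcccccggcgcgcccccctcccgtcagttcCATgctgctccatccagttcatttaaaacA
The frame took 224 of the 300 bases of this start window, and its GC content was 68.1% against 55.7% for the whole record.

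Direction was also read from pairs of records that differed by an inserted stretch, as when an intron is kept or removed. The stretch had at least 50 bases, with an identical run of 30 bases on each side. The rest of the records was not compared. There were 38 such insertions over all records. The inserted bases began with GU and ended with AG when read on the complement in 11, when read on the deposited strand in 8 and on neither in 19. In the 7 pairs that held at least 1 of the 600, it was the complement in 4, the deposited strand in 1 and neither in 2. The 2 on neither were stretches of 128 nt in TCONS_00013023 and TCONS_00013024, both missing from the same record, TCONS_00005198. The 4 of the 600 in pairs read on the complement were TCONS_00149338, TCONS_00221181, TCONS_00247250 and TCONS_00249084, and 2 of the 4 insertions were the same stretch of 266 nt missing from TCONS_00149338. The 1 on the deposited strand was between TCONS_00237694 and TCONS_00237695, whose frame of 131 codons holds alternating cysteine and valine. Thus for 594 of the 600 these ends gave no direction.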

How the data were processed

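Cortex RNA of 6 libraries (3 control, 3 taken 24 h after SAH) was depleted of ribosomal RNA and sequenced, and per the labels 1 cDNA strand was marked with dUTP. The processing notes of the submitters name TopHat2 and build mm10. The assembler, the coding-potential tool and the folding program are not given in the sources used here. The deposited file that was used holds, for each transcript pooled over the libraries, an identifier, an RNA sequence, a structure and a folding energy (taken as kcal/mol). It gives no counts, so the depth behind each transcript is not known from it and no test between groups was possible.

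Frames were searched, translated with the standard code and described. No tests were run, and intervals are Wilson 95% intervals for counting error only. Proteins were compared by exact runs of residues and with blastp, and copies were found with blastn, in BLAST+ 2.17.0 (E at most 1e-10). Scripts ran in Python 3.11.15 with pandas 2.3.3, numpy 2.4.6, matplotlib 3.10.9 and scipy 1.17.1. Scripts were tested on simulated sequences with planted frames, repeats and insertions. Named transcripts were those with the 10 longest frames and the longest of each of the 5 largest groups sharing protein sequence. Others named were chosen after their values were seen, as were the measures of tandem residues, hydrophobic windows, GC at codon position 3, copies, open frames, start windows and insertions. The members and lists were chosen with earlier results of these data known. A few of the sequences examined are not reported here.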

Additional observations from a re-analysis of the deposited data

How the results depend on the processing

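The share of transcripts with a frame depended on the limit. It was 7.46% with 100 codons, 2.95% with 120 codons, 12.4% with 90 codons and 8.33% with open ends counted. Frames of at least 150 codons alone had 49% purine at codon position 1 and 48.5% GC at position 3, with 12.4% leucine, 10.7% serine, 3.55% glutamate and 4.61% isoleucine, against 50.5, 46.8, 12.0, 10.2, 3.8 and 4.38% in all frames. The cause was not tested, and these 70 frames are part of the 600. The other 22 of 31 alternatives stayed within the limit set for the value, which was an interval, a spread or a ratio. These kept 1 record of each group sharing 50 bases, compared records within length classes, took 20 or 50 residues or blastp for shared protein sequence, or, chosen after seeing the data, counted each gene with a start window once. The differences in GC content and folding energy kept their sign in all of these. Their limit, and that for length, was the standard deviation among the 600 records. This is wide beside the differences, so staying within it is a weak check. Counting each gene once could not change a share of 100%. No paired analysis was possible because the records hold no values for single libraries. The planned search of the translated frames against RefSeq proteins was not run, since no protein sequences were used here, so the frames carry no protein names. Libraries could not be left out in turn for the same reason as the pairing. Records end where assembly ended, so frame lengths are those of the records and not of any gene, and the strand of most records is not known from their sequence.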
